A study of Mus musculus with 15 samples.

Results

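A set of 7 genes of the aryl hydrocarbon receptor pathway was followed across 5 culture groups of mouse embryonic stem cells: the receptor Ahr, its partner Arnt, the repressors Ahrr and Tiparp, and the target genes Cyp1a1, Cyp1b1 and Nqo1. Ahrr and Tiparp are targets of the receptor as well. The set is 7 of 49585 genes in the deposited count table, matched by symbol. The set was selected on the measured level of Cyp1a1, which had been noted as high in the groups with PD032. The Cyp1a1 values in comparisons of a group with PD032 against a group without it are therefore given as a description, with no test. All 7 genes passed the filter on low counts, Cyp1b1 only through its counts in PD032, so it gets no test in comparisons with PD032.

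The libraries came from E14, an established mouse embryonic stem cell line of WT genotype, 3 per group. Before the experiment all cells were kept in 0.4 µM PD0325901, which inhibits the kinase MEK, 3 µM CHIR99021, which inhibits GSK3, and 4 ng/ml Lif. They were then embedded in growth factor reduced Matrigel, a basement membrane gel, at 2000 cells per µl and overlaid with N2B27, a serum-free medium. The groups received PD032+ Aurka inh (called the combination here), PD032, Aurka inh, FGF2/Activin or 2iLif. With and without PD032 refer to these group names only. The name 2iLif matches the maintenance mix of PD0325901, CHIR99021 and Lif, so 2iLif in the gel is not taken as free of a MEK inhibitor. FAK is a second name for FGF2/Activin in the labels, where neither it nor PD032 is spelled out, and where inhibitor doses, culture time in the gel and a group in N2B27 alone are not given. All groups thus share 1 cell line and a history of PD0325901, and nothing in the labels says whether the 3 libraries of a group came from separate cultures, so p-values measure the spread between these libraries, which may be technical.

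The aryl hydrocarbon receptor is a transcription factor of the bHLH-PAS family that is held in the cytoplasm in a chaperone complex. When it binds a ligand, such as a planar aromatic compound or a tryptophan derivative, it moves to the nucleus, pairs with ARNT and binds DNA at sites with the core GCGTG. Cyp1a1 is its classic target: it encodes a monooxygenase that oxidises many of the ligands, and its transcript is a widely used readout of receptor activity. AHRR competes with the receptor for ARNT, and TIPARP, a mono-ADP-ribosyltransferase, modifies and restrains it. Nqo1, a quinone reductase, also answers to the oxidative stress factor NRF2.

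RefSeq promoter sequences of GRCm38.p6, the build of the mm10 alignment, were available for 6 of the 7 genes. The 250 bases before the start are shown for both cytochrome P450 genes, for the repressor with the most copies of the core and for the target with none, 5′ to 3′ on the strand of the gene. Capitals mark GCGTG, or CACGC where the core lies on the opposite strand.
Cyp1a1: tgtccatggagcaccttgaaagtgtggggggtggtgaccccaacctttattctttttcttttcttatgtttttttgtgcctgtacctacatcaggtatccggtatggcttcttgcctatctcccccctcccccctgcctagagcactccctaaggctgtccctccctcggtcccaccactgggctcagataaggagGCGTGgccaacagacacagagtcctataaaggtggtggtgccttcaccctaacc
Cyp1b1: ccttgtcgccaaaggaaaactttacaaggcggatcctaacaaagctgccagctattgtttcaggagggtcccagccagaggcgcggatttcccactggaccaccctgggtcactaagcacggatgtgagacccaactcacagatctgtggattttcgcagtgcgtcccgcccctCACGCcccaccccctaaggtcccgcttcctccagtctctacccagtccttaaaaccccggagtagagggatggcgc
Ahrr: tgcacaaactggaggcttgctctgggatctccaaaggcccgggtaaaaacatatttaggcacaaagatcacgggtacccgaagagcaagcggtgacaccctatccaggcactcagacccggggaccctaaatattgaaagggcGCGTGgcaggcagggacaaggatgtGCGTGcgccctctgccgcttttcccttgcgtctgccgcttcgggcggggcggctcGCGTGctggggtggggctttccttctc
Nqo1: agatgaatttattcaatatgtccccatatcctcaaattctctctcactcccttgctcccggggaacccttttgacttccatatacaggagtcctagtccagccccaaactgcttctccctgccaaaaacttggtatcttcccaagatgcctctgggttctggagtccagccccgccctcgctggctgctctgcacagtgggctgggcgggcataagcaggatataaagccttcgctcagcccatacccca
The windows are chr9:57697363-57697612 on the plus strand for Cyp1a1, just before the start of the shorter of its 2 GENCODE transcripts at 57697613 (the longer one starts at 57687928, where the gene span given further on opens), chr17:79715062-79715311 on the minus strand for Cyp1b1, chr13:74292332-74292581 on the minus strand for Ahrr and chr8:107403206-107403455 on the minus strand for Nqo1. GCGTG was searched on both strands. It is also contained in the core bound by hypoxia-inducible factors, so both motifs share these letters. Cyp1a1 held 1 copy, 50 bases before its start, and Cyp1b1 held 1 on the opposite strand, 72 bases before its start. Ahrr held 3 copies, at 103, 78 and 23 bases. Arnt held 1 copy at 25 bases and Tiparp 1 at 166 bases on the opposite strand. Nqo1 held none in this window. Among 32851 mouse promoters searched in the same way, 28.2% held at least 1 copy and 8.63% held 2 or more, so 1 copy was common and these matches are a description of letters only.

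Total counts ran from 19304585 to 24202544 in the combination, 18421904 to 22683616 in PD032, 16010904 to 21691325 in Aurka inh, 15234243 to 15703321 in FGF2/Activin and 15199507 to 15818758 in 2iLif. The labels name the 9 libraries of the 3 inhibitor groups in one style and the 6 of FGF2/Activin and 2iLif in another. A difference in handling between both sets therefore cannot be told apart from the groups in any comparison of an inhibitor group with 2iLif. Typical variation between libraries of a group was also unequal, with a biological coefficient of variation of 8.91% in the combination, 9.32% in PD032, 11.1% in Aurka inh, 1.79% in FGF2/Activin and 4.52% in 2iLif. The 5 embryonic stem cell markers (Pou5f1, Sox2, Utf1, Sall4, Lin28a) summed to 1977 to 2371 CPM (counts scaled to a fixed library total after TMM normalization) in all 15 libraries. The sum hides opposite moves of single markers. Pou5f1 ran from 407 to 516 CPM in PD032 and from 810 to 858 in 2iLif, and Utf1 from 321 to 378 in PD032 and from 148 to 161 in 2iLif. Markers of endoderm summed to at most 2.02 CPM, of trophoblast to at most 6.45 CPM and of fibroblasts to at most 7.47 CPM. In what follows, the values of a group are in CPM in the order of replicates 1, 2 and 3. A gene was called at an adjusted p under 0.05 in edgeR's quasi-likelihood test over all 15223 genes tested.

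Ahr, on chromosome 12 (35497974 to 35535038, minus strand), was present in every group. It measured 20.0, 16.03 and 19.2 CPM in the combination, 21.3, 15.5 and 21.5 in PD032, 12.5, 11.7 and 12.8 in Aurka inh, 15.4, 14.1 and 13.1 in FGF2/Activin, and 8.12, 7.64 and 8.27 in 2iLif. Both groups with PD032 stood above all other libraries, 2iLif stood below all others, and no library of the combination or PD032 overlapped with Aurka inh. Against Aurka inh, Ahr rose on the log2 scale by 0.58 in the combination (SE 0.12, edgeR adjusted p = 0.0014) and by 0.65 in PD032 (SE 0.12, adjusted p = 0.00031). The combination and PD032 overlapped and differed by -0.08 (SE 0.11, edgeR adjusted p = 0.61). Against 2iLif, Ahr rose by 1.20 in the combination (SE 0.13, edgeR adjusted p = 1.4e-06), 1.28 in PD032 (SE 0.13, adjusted p = 2.8e-07), 0.63 in Aurka inh (SE 0.13, adjusted p = 0.00076) and 0.82 in FGF2/Activin (SE 0.13, adjusted p = 4.4e-05). Ahr was thus called in 6 of the 7 comparisons. In RNA from whole cultures, fewer cells with a transcript and less transcript per cell cannot be told apart, which holds for every value here.

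Arnt, on chromosome 3 (95434388 to 95497240, plus strand), encodes the shared partner of the receptor and of the hypoxia-inducible factors. It measured 128, 120 and 119 CPM in the combination, 138, 126 and 128 in PD032, 118, 107 and 106 in Aurka inh, 103, 105 and 111 in FGF2/Activin, and 123, 122 and 123 in 2iLif. PD032 was the highest group and overlapped with the combination but not with Aurka inh or 2iLif. Arnt rose in PD032 against Aurka inh by 0.24 on the log2 scale (SE 0.05, edgeR adjusted p = 0.0016) and fell in FGF2/Activin against 2iLif (log2 fold change -0.21, SE 0.05, adjusted p = 0.0035). Its calls in the combination against Aurka inh (0.15, SE 0.05, edgeR adjusted p = 0.044) and in Aurka inh against 2iLif (-0.15, SE 0.05, adjusted p = 0.025) were marginal. The first of these was lost in 10 of 13 alternatives (edgeR or DESeq2 adjusted p = 0.057 to 0.25), among them both other scalings, no filter, DESeq2's Wald test and leaving out replicate 1 or 3 of the combination or replicate 2 or 3 of Aurka inh. The second was lost in 9 of 13 (edgeR adjusted p = 0.062 to 0.16), among them library size alone, no filter, a fit of both groups alone and leaving out any 2iLif library or replicate 2 or 3 of Aurka inh.

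Tiparp, on chromosome 3 (65528410 to 65555518, plus strand), was highest in the combination. It measured 109.8, 99.1 and 98.3 CPM in the combination, 75.5, 79.9 and 73.6 in PD032, 83.1, 79.8 and 74.2 in Aurka inh, 59.0, 65.3 and 61.5 in FGF2/Activin, and 82.2, 78.2 and 78.2 in 2iLif. Every library of the combination lay above, and every FGF2/Activin library below, all libraries of the other groups. Tiparp rose in the combination by 0.42 on the log2 scale against PD032 (SE 0.06, edgeR adjusted p = 3.0e-05), 0.37 against Aurka inh (SE 0.06, adjusted p = 0.00017) and 0.36 against 2iLif (SE 0.06, adjusted p = 0.00014). It fell in FGF2/Activin against 2iLif (-0.36, SE 0.06, edgeR adjusted p = 8.9e-05). PD032, Aurka inh and 2iLif overlapped, and their order changed with the scaling of the libraries. In PD032 against Aurka inh Tiparp did not pass (-0.05, SE 0.06, edgeR adjusted p = 0.52). A pseudogene on the opposite strand, 4931440P22Rik, overlaps Tiparp and had 375 counts over all libraries.

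Ahrr, on chromosome 13 (74211118 to 74292331, minus strand), was near the lower limit of what these libraries can measure. Its level was 1.24, 1.31 and 0.708 CPM in the combination, 1.14, 0.644 and 0.772 in PD032, 1.09, 0.378 and 1.04 in Aurka inh, 0.459, 1.15 and 1.41 in FGF2/Activin, and 0.520, 0.271 and 0.456 in 2iLif. The summed counts were 69 in the combination, 55 in PD032, 50 in Aurka inh, 47 in FGF2/Activin and 19 in 2iLif. The groups overlapped except that 2iLif lay below the combination and PD032. Ahrr was called as higher in the combination against 2iLif (1.35, SE 0.48, edgeR adjusted p = 0.029) and in FGF2/Activin against 2iLif (1.26, SE 0.50, adjusted p = 0.038). The call in the combination was lost without replicate 1 or 2 of the combination or replicate 2 or 3 of 2iLif (adjusted p = 0.064 to 0.11), and that in FGF2/Activin without replicate 2 or 3 of FGF2/Activin or any 2iLif library (adjusted p = 0.056 to 0.17). At this depth no difference in Ahrr between the inhibitor groups was detectable, with log2 fold changes of 0.31 for the combination against Aurka inh (SE 0.39), -0.01 for PD032 against Aurka inh (SE 0.40) and 0.32 for the combination against PD032 (SE 0.38).

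Cyp1a1, on chromosome 9 (57687928 to 57703824, plus strand), spanned the widest fold range of the 7 genes. It measured 38.2, 94.8 and 35.2 CPM in the combination, 30.1, 59.2 and 32.3 in PD032, 1.68, 4.85 and 1.04 in Aurka inh, 0.917, 0.830 and 0.511 in FGF2/Activin, and 0.910, 1.01 and 0.847 in 2iLif. The lowest library with PD032 held 659 reads of Cyp1a1 and the highest library without it 77. The mean was 56.1 ± 33.6 CPM in the combination and 40.5 ± 16.2 in PD032, against 2.52 ± 2.04 in Aurka inh (SD, n = 3 each). These values chose the gene set, and they correspond to log2 fold changes of 4.54 for the combination against Aurka inh, 4.08 for PD032 against Aurka inh, 5.91 for the combination against 2iLif and 5.44 for PD032 against 2iLif. All cells, those of the 9 libraries without PD032 included, had been maintained in PD0325901, and 2iLif may have held it in the gel too.

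**Figure D1:**
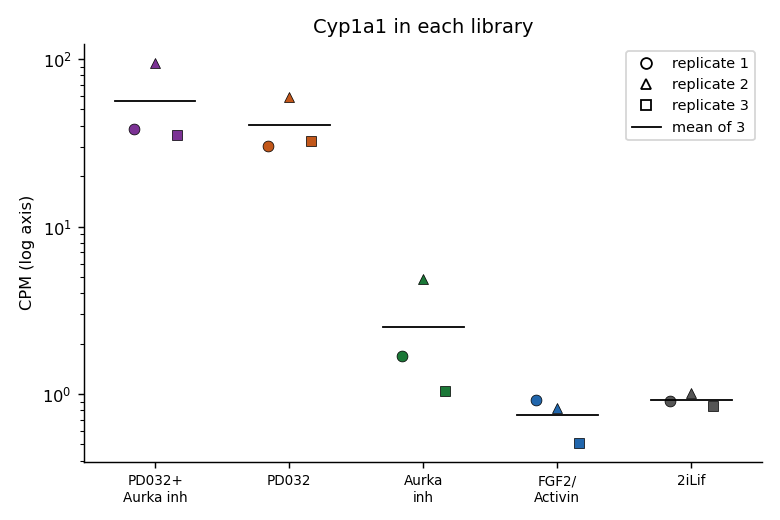
Cyp1a1 in CPM (log axis) in each library of the 5 groups, with marks for replicates 1, 2 and 3 and a line at the mean of 3. The 6 libraries with PD032 lie between 30.1 and 94.8 CPM and the other 9 at or below 4.85 CPM, and replicate 2 is the highest library in each inhibitor group.

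The 3 Cyp1a1 comparisons that did not enter the choice of the set were tested. In the combination against PD032 the log2 fold change was 0.47 (SE 0.34, edgeR adjusted p = 0.29), and the libraries overlapped. Its sign depended on 1 library: without replicate 2 of the combination it was -0.14 (adjusted p = 0.73). Libraries with the same replicate number moved together in the inhibitor groups, and within numbers 1, 2 and 3 the combination was 1.27, 1.60 and 1.09 times PD032. With replicate number as a block the log2 fold change was 0.40 and passed (edgeR adjusted p = 0.00081), a fit in which 57.5% of all genes passed. In Aurka inh against 2iLif, the log2 fold change of Cyp1a1 was 1.36 (SE 0.84, edgeR adjusted p = 0.18), and no Aurka inh library overlapped with 2iLif. Without replicate 2 of Aurka inh the log2 fold change was 0.58 (adjusted p = 0.64). The difference passed in 4 of 13 alternatives, among them DESeq2's Wald test (adjusted p = 0.033) and an edgeR fit of those 2 groups alone (adjusted p = 0.047), and the adjusted p ran from 1.3e-07 with no filter to 0.64. The fit with no filter is among these 4, and a call from it alone would not count as support. FGF2/Activin and 2iLif overlapped (-0.29, SE 1.11, edgeR adjusted p = 0.83).

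Cyp1b1, on chromosome 17 (79701537 to 79715061, minus strand), encodes the second cytochrome P450 of this pathway. Its level was 0.184, 0.104 and 0.250 CPM in the combination, 0.868, 1.23 and 1.07 in PD032, 0.091, 0.126 and 0.156 in Aurka inh, 0.131, 0.255 and 0.064 in FGF2/Activin, and 0.390, 0.135 and 0.195 in 2iLif. The 3 PD032 libraries, with 67 reads in all, stood above every other library, and the combination, with 12 reads, overlapped with Aurka inh, FGF2/Activin and 2iLif. Since Cyp1b1 passed the filter only through PD032, the group in which it is high, its differences from PD032 are given as levels with no test. The Cyp1a1 libraries of the combination overlapped with those of PD032, whereas Cyp1b1 averaged 0.179 ± 0.0728 CPM in the combination and 1.06 ± 0.184 CPM in PD032 (SD, n = 3 each).

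Nqo1, on chromosome 8 (107388225 to 107403206, minus strand), was lowest in Aurka inh. It measured 63.6, 109.7 and 60.7 CPM in the combination, 69.2, 135.3 and 68.4 in PD032, 31.5, 62.7 and 29.2 in Aurka inh, 68.5, 72.0 and 80.7 in FGF2/Activin, and 80.1, 82.0 and 81.7 in 2iLif. No Aurka inh library reached those of PD032, FGF2/Activin or 2iLif, while replicate 2 of Aurka inh exceeded replicate 3 of the combination. Nqo1 rose in PD032 against Aurka inh (log2 fold change 1.15, SE 0.30, edgeR adjusted p = 0.0045) and in the combination against Aurka inh (0.93, SE 0.30, adjusted p = 0.022), and fell in Aurka inh against 2iLif (-0.995, SE 0.30, adjusted p = 0.0093). The call in the combination was lost without replicate 1 or 3 of Aurka inh (edgeR adjusted p = 0.086 and 0.11) or replicate 2 of the combination (adjusted p = 0.12), and that against 2iLif without replicate 3 of Aurka inh (adjusted p = 0.051). Within replicate numbers 1, 2 and 3, the combination was 2.02, 1.75 and 2.08 times and PD032 was 2.20, 2.16 and 2.34 times Aurka inh. The combination and PD032 differed by -0.22 (SE 0.28, edgeR adjusted p = 0.56), and with the replicate block by -0.21 (adjusted p = 0.00083), the combination being 0.919, 0.810 and 0.888 times PD032 within numbers. Arnt also passed there only with the block (-0.10, adjusted p = 0.018, against -0.10 and adjusted p = 0.16 without it).

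**Figure D2:**
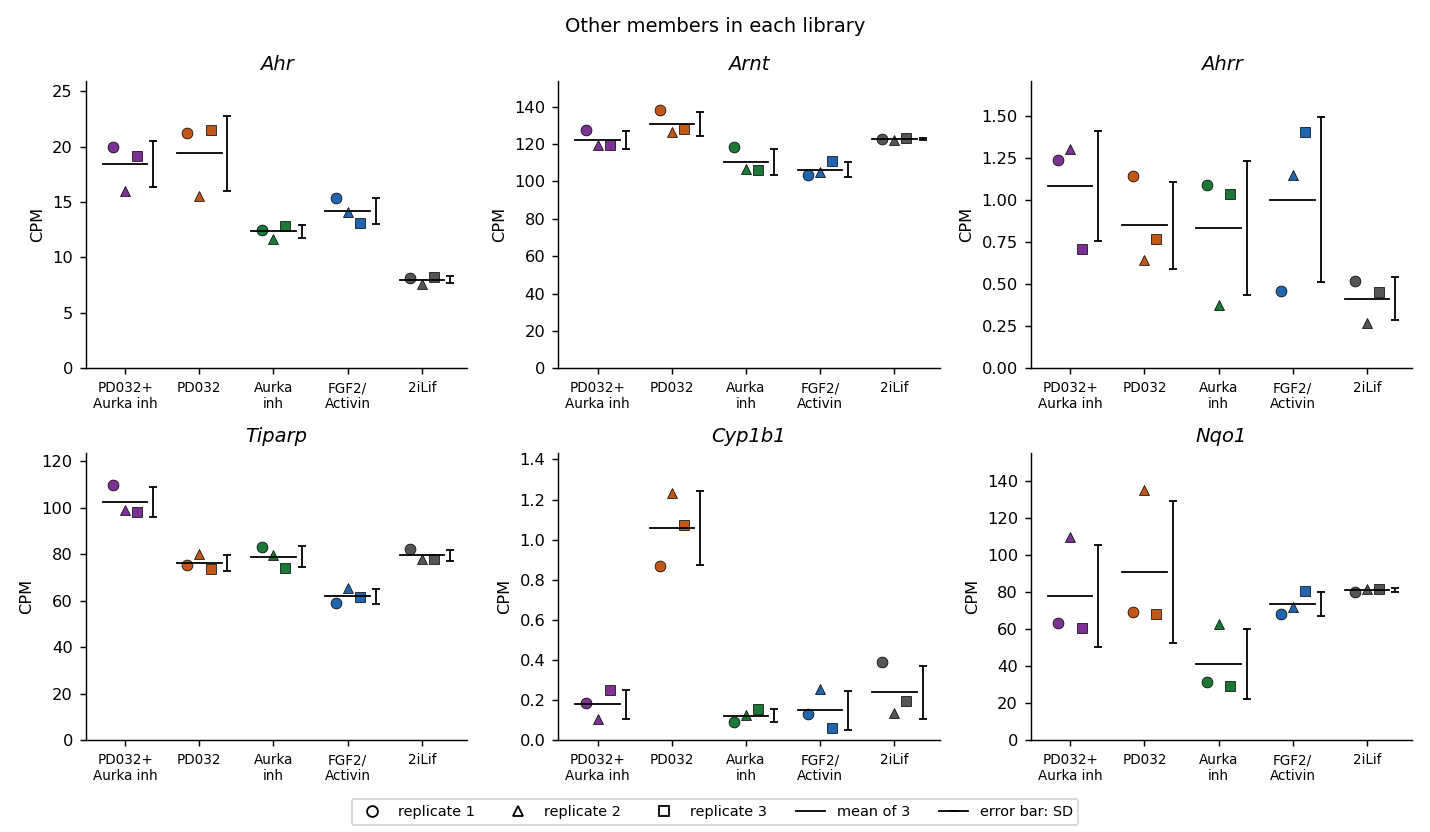
CPM of the other 6 genes in each library, with the mean (line) and SD (error bar) of 3 libraries per group. Ahr is lowest in 2iLif, Tiparp highest in the combination, Cyp1b1 highest in PD032 and Nqo1 lowest in Aurka inh.

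Counted over the genes that had not chosen the set, 4 of 6 were higher in the combination than in Aurka inh (Ahr, Arnt, Tiparp and Nqo1), where 18.6% of all genes tested were higher and 34.9% were called in either direction. Arnt is 1 of these 4 although its call is marginal. Cyp1b1 is left out of the counts in comparisons with PD032. In PD032 against Aurka inh 3 of 5 were higher (Ahr, Arnt and Nqo1), where 25.8% of all genes were higher and 45.5% were called. The combination against PD032 gave 1 call of 6, Tiparp as higher, where 20% of all genes were higher, 23.8% lower and 43.7% called, so that count lay below the background. With the replicate block 4 of 6 passed in that comparison (57.5% of all genes), 4 of 6 in the combination against Aurka inh (48.4%) and 3 of 5 in PD032 against Aurka inh (58.3%). Against 2iLif, 3 of 6 were higher in the combination (23.8% of all genes higher, 47.6% called) and 1 of 5 in PD032 (32.1% higher, 30.9% lower, 63% called). In Aurka inh 1 was higher and 2 were lower of 7 (28.9% of all genes higher, 29.5% lower, 58.4% called), and in FGF2/Activin 2 were higher and 2 lower of 7 (33.3% higher, 32.6% lower, 65.9% called). The shares called in either direction against 2iLif were near or below those of all genes. The comparisons share libraries, so their counts are not separate evidence.

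Per kilobase of exon, Nqo1 was the most abundant of the 7 transcripts in every group, with mean levels of 50.2 CPM per kb in the combination, 58.6 in PD032, 26.5 in Aurka inh, 47.5 in FGF2/Activin and 52.3 in 2iLif. Cyp1a1 reached 20.1 CPM per kb in the combination and 14.5 in PD032, near Tiparp (23.5 and 17.5) and Arnt (15.3 and 16.3) in the same groups. In Aurka inh it averaged 0.905, in FGF2/Activin 0.270 and in 2iLif 0.331 CPM per kb, below Ahr in each of these 3 groups (2.004, 2.30 and 1.30). Ahrr and Cyp1b1 stayed at or below 0.181 CPM per kb in all group means.

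Within the inhibitor groups, Cyp1a1 and Nqo1 shared a pattern across replicate numbers that the other 5 genes lacked. Replicate 2 of Cyp1a1 was 2.48 times the higher of the other libraries in the combination, 1.83 times in PD032 and 2.88 times in Aurka inh. For Nqo1 the ratios were 1.73 in the combination, 1.96 in PD032 and 1.99 in Aurka inh. In FGF2/Activin the same ratio was 0.904 for Cyp1a1 and 0.891 for Nqo1, and in 2iLif 1.12 and 1.00. Over all genes, 70 of 15223 (0.46%) reached 1.5 times in all 3 inhibitor groups, and 123 (0.808%) were at least 1.5 times under the lower of the other libraries in all 3. Replicate 2 was singled out after the values were seen, so these shares are a description and no test of the pattern. Ahr ran the other way, with replicate 2 the lowest library of each inhibitor group. Replicate 2 also had the lowest total count in each inhibitor group. Egr1, an ERK feedback target, was among the 123 genes low in replicate 2. It lay 52.4 times under the lower of the other libraries in the combination, 22.7 times in PD032 and 2.57 times in Aurka inh. The part of depth or of any other trait of these libraries in the pattern was not tested. Without replicate 2 of all inhibitor groups, Cyp1a1 differed by 0.23 on the log2 scale between the combination and PD032 (edgeR adjusted p = 0.017), and Nqo1 was called as lower against 2iLif in the combination (-0.39, adjusted p = 8.9e-06) and in PD032 (-0.24, adjusted p = 0.0011). With all libraries these Nqo1 values were -0.06 and 0.16 and did not pass (edgeR adjusted p = 0.88 and 0.65).

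**Figure D3:**
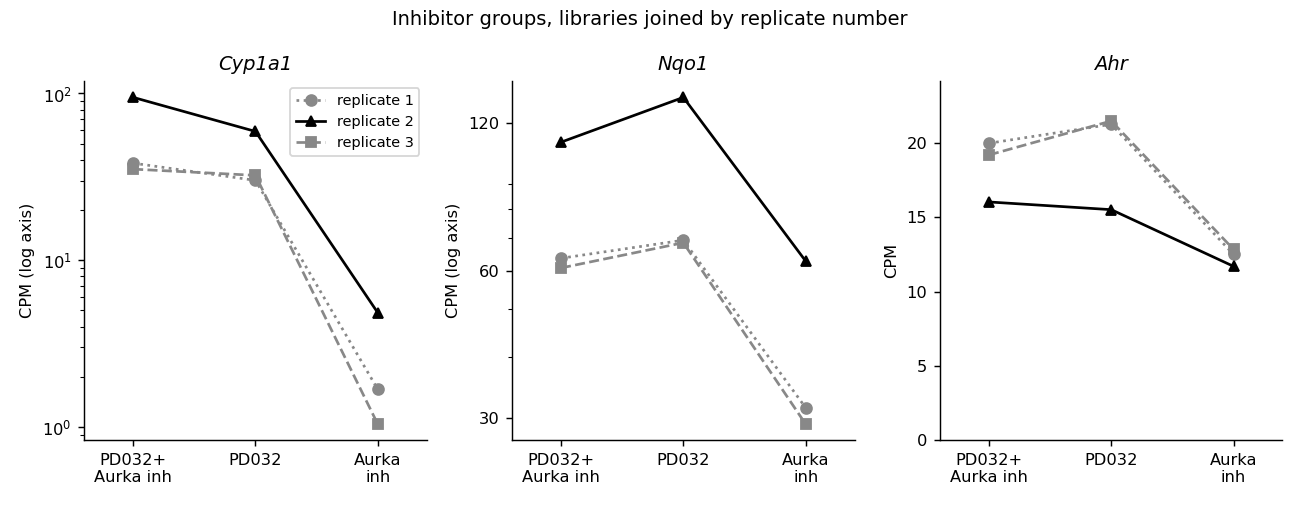
CPM of Cyp1a1 and Nqo1 (log axes) and Ahr (linear axis) in the 3 inhibitor groups, with libraries of the same replicate number joined by a line. Replicate 2 runs above the others for Cyp1a1 and Nqo1 in all 3 groups, and below them for Ahr.

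A further 9 genes reported as receptor targets in mouse were examined next, of which 3 passed the filter on low counts. These were Cyp2s1, a cytochrome P450, Aldh3a1, an aldehyde dehydrogenase, and Scin, an actin-severing protein. Cyp2s1 and Aldh3a1 rose in the combination against Aurka inh, on the log2 scale by 0.95 (SE 0.17, edgeR adjusted p = 0.00039) and 1.29 (SE 0.41, adjusted p = 0.021). Both also rose in the combination against PD032, by 0.97 (SE 0.17, edgeR adjusted p = 0.00019) and 1.07 (SE 0.38, adjusted p = 0.032). In PD032 against Aurka inh 0 of the 3 passed in edgeR, 0 had an unadjusted p under 0.05 and 0 passed in DESeq2. Scin passed the filter only through FGF2/Activin and Aldh3a1 only through 2iLif. Scin had 1, 4 and 1 reads in the combination, 6, 6 and 4 in PD032, and 2, 1 and 2 in Aurka inh. With so few reads, Scin and Aldh3a1 could show only a large difference between PD032 and Aurka inh. Of all genes, 18.6% were higher in the combination against Aurka inh, 20% in the combination against PD032 and 25.8% in PD032 against Aurka inh. The shares called in either direction were 34.9%, 43.7% and 45.5%, in the same order. The Aldh3a1 calls rest on 37 reads in the combination, 17 in PD032 and 13 in Aurka inh, and were lost without replicate 1 of Aurka inh or of the combination (adjusted p = 0.10 and 0.083 against Aurka inh) and without any single library other than replicate 2 of either group against PD032 (adjusted p = 0.059 to 0.19). In DESeq2's Wald test Aldh3a1 did not pass against Aurka inh (adjusted p = 0.054) or against PD032 (adjusted p = 0.074).

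Cyp2s1 and Aldh3a1 had their highest mean level in 2iLif, in which Cyp1a1 was low. Cyp2s1 measured 11.5, 16.1 and 11.3 CPM in the combination, 6.44, 7.57 and 5.92 in PD032, 5.96, 8.87 and 5.51 in Aurka inh, 3.47, 3.83 and 3.32 in FGF2/Activin, and 17.7, 18.7 and 19.9 in 2iLif. Every 2iLif library of Cyp2s1 lay above all others. Cyp2s1 fell in each inhibitor group against 2iLif, by log2 fold changes of -0.54 in the combination, -1.51 in PD032 and -1.49 in Aurka inh (edgeR adjusted p = 0.0098, 9.1e-07 and 1.4e-06). Aldh3a1 had 37 reads in the combination, 17 in PD032 and 13 in Aurka inh, against 109 in 2iLif, through which alone it passed the filter, so that difference gets no test. Cyp1a2, the P450 gene that lies head to head with Cyp1a1, had 9 reads in the combination, 5 in PD032, 1 in Aurka inh, 2 in FGF2/Activin and 1 in 2iLif, too few to test.

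Chaperones that hold the receptor in the cytoplasm were followed through Hsp90aa1, Hsp90ab1 and Ptges3, all of which were tested. In the combination against Aurka inh 0 of the 3 passed in edgeR, with 0 at an unadjusted p under 0.05 and 0 in DESeq2 (median log2 fold change 0.03, against 0.01 over all genes). In that comparison 34.9% of all genes were called. Each other count of 0 genes in 1 direction given here for a list was also 0 at an unadjusted p under 0.05 and in DESeq2. Hsp90ab1, an HSP90 isoform, fell in PD032 against Aurka inh (-0.25, SE 0.05, edgeR adjusted p = 0.00089) and rose in the combination against PD032 (0.28, SE 0.05, adjusted p = 0.00032).

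Of 9 relatives of Ahr and Arnt in the bHLH-PAS family, 6 were tested. Against Aurka inh, 3 rose and 1 fell in the combination, where 34.9% of all genes were called: Epas1, the hypoxia-inducible factor 2 alpha subunit, rose by 0.78 (SE 0.11, edgeR adjusted p = 3.1e-05), and Arnt2, a paralogue of Arnt, fell (-0.89, SE 0.21, adjusted p = 0.0033). In PD032 against Aurka inh, where 45.5% of all genes were called, 3 rose and 0 fell, led by Epas1 (1.47, SE 0.10, edgeR adjusted p = 1.1e-08) and Arntl, the clock factor BMAL1 (0.64, SE 0.12, adjusted p = 0.00033). Between the combination and PD032, 1 was higher and 3 were lower in the combination (43.7% of all genes called), among them Arnt2 (-1.12, SE 0.20, edgeR adjusted p = 0.00032) and Epas1 (-0.69, SE 0.10, adjusted p = 2.6e-05). Epas1 measured 18.97, 21.5 and 19.7 CPM in the combination, 31.9, 36.1 and 29.2 in PD032, and 12.6, 12.6 and 9.93 in Aurka inh, with no overlap between the 3 groups. Its level was 31.8, 36.9 and 37.1 CPM in FGF2/Activin, which overlapped with PD032, and 13.2, 13.4 and 13.1 in 2iLif.

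All 11 genes of the NRF2 pathway, to which Nqo1 also belongs, were tested. Against Aurka inh, 2 rose and 7 fell in the combination (median -0.29, with 18.6% of all genes higher and 16.3% lower): Keap1, which targets NRF2 for degradation, rose by 0.46 (SE 0.06, edgeR adjusted p = 3.5e-05) and G6pdx, the first enzyme of the pentose phosphate pathway, fell (-0.43, SE 0.06, adjusted p = 2.5e-05). Osgin1, a stress-induced growth inhibitor, fell most (-3.06, SE 0.52, edgeR adjusted p = 0.00043), with 8 reads in the combination and 62 in Aurka inh. In PD032 against Aurka inh 2 rose and 3 fell (median -0.02), a share called equal to the 45.5% of all genes, with Nfe2l2, which encodes NRF2, at 0.35 (SE 0.07, edgeR adjusted p = 0.00066). Set against PD032, 1 rose and 4 fell in the combination (20% of all genes higher, 23.8% lower), among them Gclm, the modifier subunit of glutathione synthesis (-0.47, SE 0.04, adjusted p = 1.4e-07), and Hmox1, haem oxygenase (-0.27, SE 0.05, adjusted p = 0.00025). In FGF2/Activin against 2iLif, where Nqo1 did not pass (-0.14, SE 0.29, edgeR adjusted p = 0.69), 8 of the 11 rose and 2 fell (33.3% of all genes higher, 32.6% lower).

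The 10 targets of the hypoxia-inducible factors, which also use ARNT, were tested. In PD032 against Aurka inh 7 rose and 1 fell (median 0.53, against 0.02 over all genes, of which 25.8% were higher and 19.7% lower), with Slc2a1, the glucose transporter GLUT1, at 820.9 CPM in PD032 and 322.5 in Aurka inh (log2 fold change 1.35, SE 0.08, edgeR adjusted p = 2.7e-09). Against Aurka inh, 3 rose and 2 fell in the combination (34.9% of all genes called), with Ndrg1 at 1.31 (SE 0.10, edgeR adjusted p = 6.6e-08) and Egln3, an oxygen-sensing prolyl hydroxylase, at -1.76 (SE 0.20, adjusted p = 5.5e-06). In the combination against PD032 3 rose and 5 fell (20% of all genes higher, 23.8% lower), with Egln3 at -2.33 (SE 0.19, edgeR adjusted p = 8.3e-08) and Adm, which encodes adrenomedullin, at -2.10 (SE 0.56, adjusted p = 0.0059). The Adm value rests on 7 reads in the combination and 31 in PD032, and Adm passed the filter only through FGF2/Activin.

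**Figure D4:**
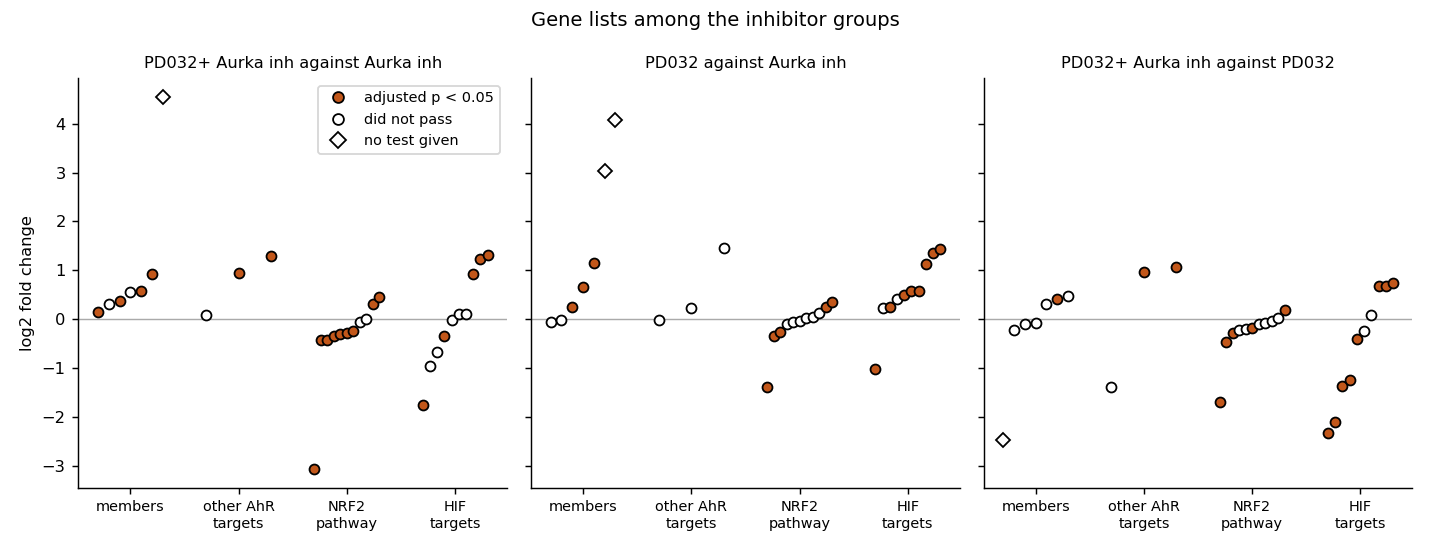
Log2 fold change (first-named group over second) of each tested gene of 4 lists in the 3 comparisons among inhibitor groups, ordered by value within a list. Filled points passed at an adjusted p under 0.05, open points did not, and diamonds are Cyp1a1 and Cyp1b1 values for which no test is given; receptor targets other than the 7 genes lie at or above 0.08 in the combination against Aurka inh.

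Of 6 genes that make or break down tryptophan-derived ligands, 3 were tested. Ido2, an enzyme of tryptophan breakdown, had 62 reads in the combination, 0 in PD032 and 94 in Aurka inh, so it was at least 20.3-fold higher in the combination than in PD032 and at least 35-fold lower in PD032 than in Aurka inh, taking 3 counts per group as the floor. Kynu, kynureninase, ran the other way, with 0 reads in the combination, 41 in PD032 and 2 in Aurka inh. It was at least 13.9-fold lower in the combination than in PD032, and in PD032 its ratio to Aurka inh was 18.3, which rests on 2 reads in Aurka inh. Kynu passed the filter only through PD032, so the direction of its ratios was favoured by the filter. Floors cover counting error only, and the Kynu ratio is given with no interval.

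Among 9 other inducible P450 genes, 3 had enough reads, Cyp26a1 only through PD032, and it is given with no test. Cyp26a1, the retinoic acid hydroxylase, had 1 read in the combination, 340 in PD032 and 3 in Aurka inh, which is a ratio of PD032 to Aurka inh of 101. The filter favoured the direction of this ratio, which rests on 3 reads in Aurka inh. Cyp3a13 had mean levels of 1.24 CPM in the combination, 2.57 in PD032 and 0.376 in Aurka inh, with log2 fold changes of 1.72 for the combination against Aurka inh (SE 0.33, edgeR adjusted p = 0.00066), 2.76 for PD032 against Aurka inh (SE 0.30, adjusted p = 1.4e-06) and -1.04 for the combination against PD032 (SE 0.23, adjusted p = 0.0018). Cyp51, of sterol synthesis, rose in PD032 against Aurka inh by 0.23 (SE 0.05, edgeR adjusted p = 0.0028) and fell in the combination against PD032 (-0.38, SE 0.05, adjusted p = 3.7e-05).

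Feedback targets of ERK signalling served as a check for lower ERK output in both groups with PD032. In each of them 5 of 6 fell against Aurka inh and 0 rose (16.3% of all genes lower in the combination and 19.7% in PD032), with Spry4, an ERK pathway inhibitor, at 0.647 CPM in the combination, 0.149 in PD032 and 17.1 in Aurka inh. Against PD032, 4 rose and 0 fell in the combination (20% of all genes higher, 23.8% lower), Spry4 by 2.14 (SE 0.41, edgeR adjusted p = 0.00046). Against 2iLif, 1 rose and 3 fell in the combination (23.8% of all genes higher, 23.8% lower). In PD032 0 rose and 5 fell against 2iLif (32.1% of all genes higher, 30.9% lower).

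The 5 named genes whose log2 CPM tracked Cyp1a1 most closely over the 15 libraries were Nav1 (Pearson r = 0.969), Hps3 (0.965), Cdc42ep5 (0.963), Mpped2 (0.957) and Ccdc30 (0.955). For Cyp1a1 the libraries fall into 6 with PD032 and 9 without, so these values mainly describe that split and carry no p. Nav1 had mean levels of 112 CPM in the combination, 109 in PD032, 64.8 in Aurka inh, 56.1 in FGF2/Activin and 67.5 in 2iLif. Among the other 6 genes of the pathway r was 0.716 for Ahr, 0.642 for Tiparp, 0.586 for Arnt, 0.509 for Cyp1b1, 0.339 for Nqo1 and 0.272 for Ahrr, and Ahr ranked 826 of 15223.

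Genes next to Cyp1a1 were compared to show whether the difference extended along the chromosome. Within 250 kb on either side 17 genes were tested. In the combination against Aurka inh their log2 fold changes ran from -2.55 for Cplx3 to 1.45 for Rpp25, and in PD032 against Aurka inh from -0.17 to 1.65, where Cplx3 was the highest. Against 2iLif they ran from -1.01 to 1.36 in the combination and from -1.05 to 5.56 in PD032, with Cplx3 the highest in both. The Cyp1a1 values that chose the set were 4.54, 4.08, 5.91 and 5.44 in the same 4 comparisons, so in PD032 against 2iLif Cplx3 exceeded Cyp1a1. In other comparisons Cplx3 differed from Cyp1a1. Against 2iLif, Cplx3 was at 5.30 in FGF2/Activin and 3.91 in Aurka inh, where Cyp1a1 was at -0.29 and 1.36. Between the combination and PD032, Cplx3 was at -4.20 and Cyp1a1 at 0.47. Cplx3 and Rpp25 are named for being at the ends of the range.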

How the data were processed

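The deposited table held whole-number counts per gene for 15 libraries, and all fits start from these counts. A second table held the authors' normalized values on a log2 scale and was used only to place the groups under another scaling. The submitters' processing notes name STAR, DESeq2 and the build mm10, without versions. The read counter, its annotation and its strand setting were not stated in the sources read. Per the labels' protocols, libraries were poly(A)-selected and made with a strand-marking kit. If the counting ignored strand, reads of overlapping antisense genes cannot be told apart.

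Of 49585 genes, 49326 had a symbol. Counts were scaled by TMM, filtered with filterByExpr and fitted in 1 edgeR quasi-likelihood model over all 15 libraries, with Benjamini-Hochberg adjustment over the 15223 genes tested in each of 7 comparisons (R 4.3.3, edgeR 4.0.16, limma 3.58.1, DESeq2 1.42.0). Coordinates and exon lengths came from the GENCODE annotation of the mm10 build. Genes and lists were chosen with earlier results of these data known. Some items are not reported here and were taken out of the lists. All 7 members are named. Of each other list up to 3 called genes are named, by size of fold change, with Egr1 added for its spread between replicates. The 5 genes most like Cyp1a1 are those with the highest Pearson correlation of log2 CPM (prior count 2). For a group at 0 reads, a fold is a bound against 3 counts over the group. The fit was tested on simulated counts: over the 7 comparisons, 91% to 98.5% of genes changed 4-fold and 48.5% to 72.7% of those changed 1.5-fold were recovered, with 4 to 12 false calls among 14757 to 14792 genes.

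The labels give equal replicate numbers in all groups. Deviations from the group mean, correlated across genes, gave r of 0.17 to 0.483 for the 9 pairs of same-numbered inhibitor libraries and -0.0448 to 0.0654 for the other 21 pairs, so the numbers were taken to pair the inhibitor libraries, from the data and not from a stated design. Alternatives were DESeq2 size factors, library size alone, DESeq2's Wald test, no filter, each library left out, fits of the compared or inhibitor libraries alone with and without the replicate block, and, added after the values were seen, leaving out replicate 2 of all inhibitor groups.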

Additional observations from a re-analysis of the deposited data

How the results depend on the processing

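Of 620 alternative values for single genes, 536 kept their direction and side of the threshold, 33 lost a call, 21 gained one and 30 changed sign, and of 183 alternative counts 177 stayed within 1.5 times of the reported one. The reversals concern differences that had not passed. For PD032 against Aurka inh, Ahrr was 0.014 on the log2 scale with library size alone, 0.0023 with no filter and -0.31 to 0.23 with 1 library left out. For the combination against 2iLif, Arnt was 0.024 with library size alone, 0.0051 with no filter, 0.0056 without and 0.0049 with the replicate block in a fit of both groups, 0.011 without replicate 2 of all inhibitor groups and -0.042 to 0.012 with 1 library left out. In the same comparison Cyp1b1 was -0.69 to 0.14 and Nqo1 -0.39 to 0.090 with 1 library left out. Tiparp was 0.013 in PD032 against 2iLif with library size alone. In Aurka inh against 2iLif it was 0.0079 with DESeq2 size factors, 0.040 with library size alone, 0.0080 in DESeq2's Wald test, 0.026 without and 0.025 with the replicate block, and -0.048 to 0.034 with 1 library left out. With 1 library left out, the combination against PD032 gave -0.54 to 0.18 for Nqo1, -0.21 to 0.0078 for Ahr and -0.14 to 0.84 for Cyp1a1, and PD032 against 2iLif gave -0.24 to 0.33 for Nqo1. Without replicate 2 of all inhibitor groups, an alternative chosen after seeing the data, Nqo1 was -0.24 in PD032 against 2iLif and Ahrr -0.15 in the combination against Aurka inh, where Ahrr was 0.0051 to 0.55 with 1 library left out.

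With Cyp1b1 counted throughout, the number of genes called changed by over 1.5 times in 4 comparisons. It was 4 with no filter and 5 with the replicate block in the combination against PD032 (2 with the settings used). In the combination against Aurka inh it was 2 in a fit of the 9 inhibitor libraries with no replicate block and 2 to 3 with 1 library left out (4 with the settings used). In Aurka inh against 2iLif it was 1 to 3 with 1 library left out (3 with the settings used), the 1 being without Aurka inh replicate 3. In PD032 against 2iLif it was 4 without replicate 2 of all inhibitor groups (2 with the settings used). Without the filter, p-values for Nqo1 fell to 1.3e-51, so calls gained only there were not counted as support. The number called was 2 to 4 (3 with the settings used) in the combination against 2iLif and 3 to 4 (4) in FGF2/Activin against 2iLif, and 4 throughout in PD032 against Aurka inh. The cause of these changes was not tested. The replicate block changed no other reported call among the inhibitor groups for the 7 genes. Depth limits Ahrr and Cyp1b1, with 19 to 69 and 7 to 67 reads per group.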
